A study of Rattus norvegicus with 5 samples.

Results

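The nuclei described here were GABA (γ-aminobutyric acid) nuclei of the rat ventral tegmental area (VTA) in which at least 2 of the genes Pax7, Meis2, Corin and Nox4 were detected. They numbered 293 of 2135 GABA nuclei and of 22084 nuclei kept in all. The data were single-nucleus RNA sequencing (snRNA-seq) libraries of bilateral VTA punches from 5 adult male Sprague-Dawley rats, with 1 library per rat and 1 group. The sample labels name the treatment of this group as saline, and the study describes the animals sequenced as drug-naïve. Both sides of every comparison below came from the same 5 rats, so that no treatment was compared and the replicate was the rat. Punches hold the VTA together with whatever borders it, and no label gave the position of a nucleus within the punch.

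A barcode was kept as a nucleus at 1000 or more unique molecular identifiers (UMIs, each standing for 1 captured RNA molecule), more than 200 and fewer than 5000 genes, and under 5% of UMIs from mitochondrial genes. GABA nuclei had at least 2 of Gad1, Gad2 and Slc32a1 detected, at most 1 UMI of Slc17a6, fewer than 10 Mog UMIs per 10000, and fewer than 8 UMIs per 10000 of Th, Slc6a3, Slc18a2 and Ddc together. Pax7/Meis2 GABA nuclei also had at least 1 UMI of 2 or more of the 4 genes, and the 1842 GABA nuclei with 1 or none of them are called other GABA nuclei. The nuclei were thus chosen by the values of these 13 genes, which are given as a description, without a test. The 4 genes were picked with earlier results of these nuclei known, so the tests on further genes describe how the nuclei differed and are not independent evidence of a cell class.

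Pax7 and Meis2 are transcription factors, the first of the paired-box family and the second of the TALE homeodomain family, whose members bind DNA together with PBX and HOX proteins. Pax7 is best known from the dorsal neural tube, the roof of the midbrain and the satellite cells of muscle. Corin is a membrane serine protease that activates the natriuretic peptide precursors, and Nox4 is an NADPH oxidase that makes hydrogen peroxide. In the midbrain, many GABA neurons depend on a different set of factors, Gata2, Gata3, Tal1 and Sox14, and GABA neurons of the VTA inhibit neighbouring dopamine neurons and project beyond the VTA.

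Libraries differed in depth, with totals of 10193355 to 88576210 UMIs. Pax7/Meis2 GABA nuclei numbered 7, 172, 9, 58 and 47 in rats 1 to 5, so that rat 2 gave most of them and rats 1 and 3 very few. Without the limit of 5000 genes, rat 1 had 33 and rat 3 still 9. Of barcodes with 1000 or more UMIs, the mitochondrial limit removed 3121 of 5218 in rat 1, 3514 of 13176 in rat 2 and 18 of 2305 in rat 3. It removed 51 of 5191 in rat 4 and 411 of 4445 in rat 5, and the part of this difference in the numbers was not tested. The median depth of Pax7/Meis2 nuclei was 10802, 7124, 1400, 10254 and 8646 UMIs, against 2692, 6396, 1994, 9446 and 7019 UMIs in other GABA nuclei. Detection of 2 genes needs depth, and in 4 of the 5 rats the Pax7/Meis2 nuclei were the deeper group. Comparisons were therefore repeated with nuclei matched on their UMI total. No barcode was shared between libraries among GABA nuclei, while 50 barcodes were shared among the 22084 nuclei kept.

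Pax7/Meis2 nuclei made up 5.11% of GABA nuclei in rat 1 (95% exact binomial interval 2.08 to 10.2%), 16.5% in rat 2 (14.3 to 18.9%), 3.52% in rat 3 (1.62 to 6.57%), 22.5% in rat 4 (17.5 to 28.1%) and 10.6% in rat 5 (7.88 to 13.8%). The mean was 11.6% ± 7.93 (SD, n = 5 rats), and the pooled share was 13.7% (12.3 to 15.3%). Intervals cover counting error only. The intervals of rats 2 and 4 lay above those of rats 1 and 3, and the lowest share was that of the shallowest library. Without the maximum of genes the share was 14.4% in rat 1, close to the 17.3% of rat 2, with 3.52%, 19.8% and 11.8% in rats 3 to 5, so that the distance of rat 1 from rats 2 and 4 depended on that limit and that of rat 3 did not. With at least 2000 UMIs asked for, the shares of rats 1 to 5 were 8.97, 17.9, 2.38, 23.6 and 11.4%. Of the 137 GABA nuclei of rat 1, 71 lay in cluster 12 of the clusters described further on, whose median depth was 1810 UMIs. Their part in the share of rat 1 was not tested. Of all GABA nuclei, 1258 had none of the 4 genes, 584 had 1, 178 had 2, 85 had 3 and 30 had all 4. Median depth was 5095 UMIs in the nuclei with none and between 7343 and 8240 UMIs in the rest.

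**Figure D1:**
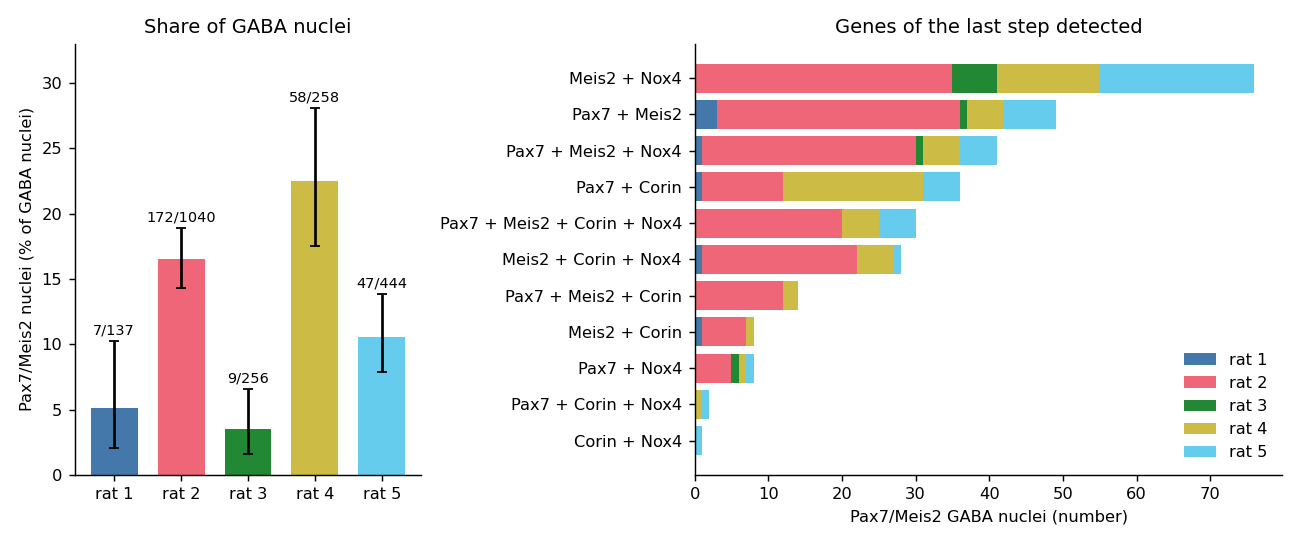
Share of Pax7/Meis2 nuclei among GABA nuclei in each rat (left, percent; bars with exact 95% binomial intervals and the counts above them) and the combinations of the 4 genes detected in the 293 nuclei (right, number of nuclei, coloured by rat). The share ran from 3.52% in rat 3 to 22.5% in rat 4, and Meis2 with Nox4 was the most frequent combination, with 76 nuclei.

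Meis2 was the gene most often detected in Pax7/Meis2 nuclei, in 246 of 293 (84.0%), followed by Nox4 in 186 (63.5%), Pax7 in 180 (61.4%) and Corin in 119 (40.6%). Meis2 stood at 14.9, 17.2, 11.9, 15 and 11.4 UMIs per 10000 in rats 1 to 5, and in other GABA nuclei at 1.25, 1.35, 1.34, 1.11 and 2.61. Pax7 stood at 2.85, 2.07, 1.88, 1.79 and 1.86 UMIs per 10000, and in other GABA nuclei between 0.0762 and 0.584. Corin was at 0.791, 1.21, 0, 1.59 and 0.868 UMIs per 10000, and Nox4 at 0.791, 3.49, 9.42, 3.64 and 3.63. The groups did not overlap for Meis2, Pax7 and Nox4, and overlapped for Corin only through rat 3, whose 9 nuclei held no Corin UMI; the rule required these differences.

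The 4 genes were combined unevenly. Meis2 with Nox4 was found in 76 nuclei (25.9%), Pax7 with Meis2 in 49, these 3 together in 41, Pax7 with Corin in 36, and all 4 in 30. Among all GABA nuclei, 63.2% of those with Nox4 also had Meis2, which was detected in 25.9% of GABA nuclei. Of those with Corin, 56.2% had Pax7, which was detected in 15.9% of GABA nuclei. In oligodendrocytes, set by at least 10 Mog UMIs per 10000 and taken as the background of free RNA, 28 of 8538 nuclei had 2 of the 4 genes, 6 had 3 and 1 had all 4. The median depth of oligodendrocytes was 2932 UMIs, against 7909 UMIs in the Pax7/Meis2 nuclei.

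Of the defining genes of GABA neurons, Gad1 stood above free RNA in each rat, Gad2 in 3 rats, and Slc32a1 stood near or below it. Gad1 was detected in 268 of 293 nuclei and Gad2 in 228, against 84.0% and 88.4% of other GABA nuclei. Gad2 stood at 3.01, 2.31, 0.628, 2.61 and 3.04 UMIs per 10000 in rats 1 to 5, and at 5.48, 4.59, 4.06, 4.77 and 5.36 in other GABA nuclei. The free RNA of the same libraries, read from barcodes with under 100 UMIs, held Gad2 at 3.48, 1.96, 2.50, 1.55 and 2.25, so that Pax7/Meis2 nuclei of rats 1 and 3 lay below it. Slc32a1, the vesicular transporter of GABA, was detected in 198 nuclei (67.6%), at 2.37, 1.80, 7.54, 0.492 and 0.689, against 1.93, 1.83, 7.46, 1.03 and 1.51 in free RNA. Of the 8538 oligodendrocytes, 764 had a UMI of Gad1, 1278 of Gad2 and 693 of Slc32a1. Gad2 was lower than in other GABA nuclei in every rat, and in GABA nuclei with 0, 1, 2, 3 and 4 of the genes the pooled Gad2 level was 4.98, 4.59, 2.99, 1.97 and 1.31. Gad1 showed no such order, with 3.46, 3.48, 2.97, 3.86 and 3.09. These genes belong to the rule, and no test was made of them.

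Near the limits of the rule, 264 Pax7/Meis2 nuclei had no Slc17a6 UMI and 29 had 1, while 3 nuclei that met all other steps had 2 and 1 had more. The summed dopamine genes lay between 6 and 8 UMIs per 10000 in 14 Pax7/Meis2 nuclei and between 8 and 10 in 8 nuclei left out by that step alone. A Mog UMI was found in 93 Pax7/Meis2 nuclei, and 12 nuclei were left out by Mog alone. Of the 293 nuclei, 185 had exactly 2 of Gad1, Gad2 and Slc32a1, and 108 had all 3.

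Genes of other cell types were present on both sides, those of oligodendrocytes in quantity. The summed oligodendrocyte markers (9 genes, none at 0) ran from 16 to 66.1 UMIs per 10000 in Pax7/Meis2 nuclei and from 15.1 to 78.8 in other GABA nuclei, against 191 to 263 in oligodendrocytes. In rats 1 and 3 they stood at 66.1 and 58.4 in Pax7/Meis2 nuclei, beside 63.3 and 46.5 for the summed neuron markers (6 genes), and in other GABA nuclei of rat 1 at 78.8 beside 39.2. Dopamine neuron markers outside the rule (9 genes, 1 of them at 0 in Pax7/Meis2 nuclei) ran from 0.460 to 1.27 and from 0.896 to 2.06, the microglia markers (8 genes) from 0 to 0.672 and from 0.523 to 2.16, and the vascular markers (6 genes) from 0 to 0.511 and from 0.101 to 1.39. Astrocyte markers (8 genes) ran from 2.14 to 7.28 and from 2.01 to 23.5. The ranges of the groups overlapped for each of these lists. Within rats, the dopamine neuron markers were lower and the neuron markers higher in Pax7/Meis2 nuclei in 5 of 5 rats, and their part in the results was not tested. When GABA nuclei were clustered, as described further on, 5 clusters (6, 10, 14, 18 and 19) held the summed markers of oligodendrocytes, astrocytes, vessels, oligodendrocyte precursors or microglia at over 4 times their level in the other clusters. They held 372 (17.4%) of GABA nuclei, namely 27 (9.22%) of the Pax7/Meis2 nuclei and 345 (18.7%) of the other GABA nuclei. These nuclei met the rule and were kept, and counts without them are given beside the results.

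For genes outside the rule, UMIs were summed per rat and group and compared with edgeR's quasi-likelihood test, with the rat as a block and p-values adjusted by Benjamini-Hochberg over all genes tested. A rat entered with at least 10 nuclei on both sides, so that rats 2, 4 and 5 were fitted, with 277 Pax7/Meis2 and 1465 other GABA nuclei. Of 11068 genes, 602 (5.44%) were called, of which 373 (3.37%) were higher in Pax7/Meis2 nuclei and 229 (2.07%) lower. Without the 5 clusters with markers of other cells, 375 were higher and 224 lower, and 519 of the 602 genes were called in the same direction. Without the rat as a block, 49 were higher and 5 lower, and 54 of the 602 genes kept their call. Most calls given below were thus lost in that fit, and Tal1, Sgcd, Bcl11b, Nos1, Oprm1, Grin3a and Sema6a were among those that were not. Of the 602 genes, 367 were also called against other GABA nuclei matched on UMI total and 286 after subtraction of free RNA, all in the same direction. The sums pool the clusters described further on, so a higher level can come from more nuclei with a gene or from more RNA per nucleus.

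The genes furthest above other GABA nuclei were a phosphatase regulator, ion channels, a growth factor receptor and nicotinic and opioid receptors. Ppp1r1c, an inhibitor of protein phosphatase 1, stood at 0.316, 0.989, 1.26, 0.804 and 0.587 UMIs per 10000 in rats 1 to 5 and at 0.0609, 0.0347, 0.0169, 0.0268 and 0.0277 in other GABA nuclei. Each rat was higher and the groups did not overlap, with a log2 fold change of 4.77 ± 0.25 (SE, n = 3 rats in the fit, edgeR adjusted p = 9.2e-09), or 27.3-fold. The Pax7/Meis2 nuclei of rats 1 and 3 held only 63202 and 15925 UMIs of all genes. Their levels of sparse genes, here and below, thus rest on few UMIs. Egfr, the receptor of epidermal growth factor, stood at 1.42, 6.53, 5.65, 4.38 and 2.40, against 0.320, 0.355, 0.186, 0.225 and 0.187 (log2 fold change 4.14 ± 0.15, edgeR adjusted p = 5.0e-11). It was detected in 61.4% of Pax7/Meis2 nuclei and in 8.63% of other GABA nuclei.

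Trpa1, an irritant-gated cation channel, was 19.3-fold higher (log2 4.27 ± 0.36, edgeR adjusted p = 1.1e-06), but it was a sparse gene, detected in 15.7% of Pax7/Meis2 nuclei and 0.923% of other GABA nuclei. Nicotinic receptor subunits were among the leading genes. Chrna2 stood at 0.475, 0.587, 0, 0.295 and 0.383 UMIs per 10000 in rats 1 to 5 and at 0, 0.071, 0.0169, 0.00535 and 0.0208 in other GABA nuclei (log2 3.56 ± 0.34, edgeR adjusted p = 4.1e-06). Its call was lost without the block. Chrna5, an accessory subunit, stood at 2.06, 2.07, 3.14, 1.62 and 1.17, against 0.0914, 0.388, 0.490, 0.118 and 0.128 (log2 2.94 ± 0.20, edgeR adjusted p = 1.1e-07), and was detected in 59.7% of Pax7/Meis2 nuclei. Rat 3 thus had no Chrna2 UMI in its 9 nuclei, and Chrna5 was higher in 5 of 5 rats.

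The other leading genes were 5.32- to 10.8-fold higher in Pax7/Meis2 nuclei. These included Dach2, a transcriptional cofactor, Hpgd, the enzyme that inactivates prostaglandins, Iqgap2, a scaffold of the cytoskeleton, Lamp5, a membrane protein of some interneurons, Ipcef1, Oprd1, the δ-opioid receptor, Nid2, a basement membrane protein, Syt6, a synaptotagmin, and Pde1c, a calcium-dependent phosphodiesterase. Pde1c was the most widely detected of them, in 76.5% of Pax7/Meis2 nuclei and 27.3% of other GABA nuclei, with 5.22, 10.7, 6.91, 6.84 and 5.67 UMIs per 10000 against 0.929, 1.72, 1.20, 1.33 and 1.39. Hpgd and Oprd1 had no UMI in the few nuclei of rats 1 and 3. Among the 15 leading genes, 13 passed the test under every alternative that tested them, and Chrna2 and Nid2 did so under all but the fit without the block. No alternative left out cluster 1, described further on, which held over 50% of the UMIs of 9 of the 15 in Pax7/Meis2 nuclei. Egfr stood at 10.1, 0.145, 8.68, 4.56 and 0.340 UMIs per 10000 in the Pax7/Meis2 nuclei of clusters 1 to 5.

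**Figure D2:**
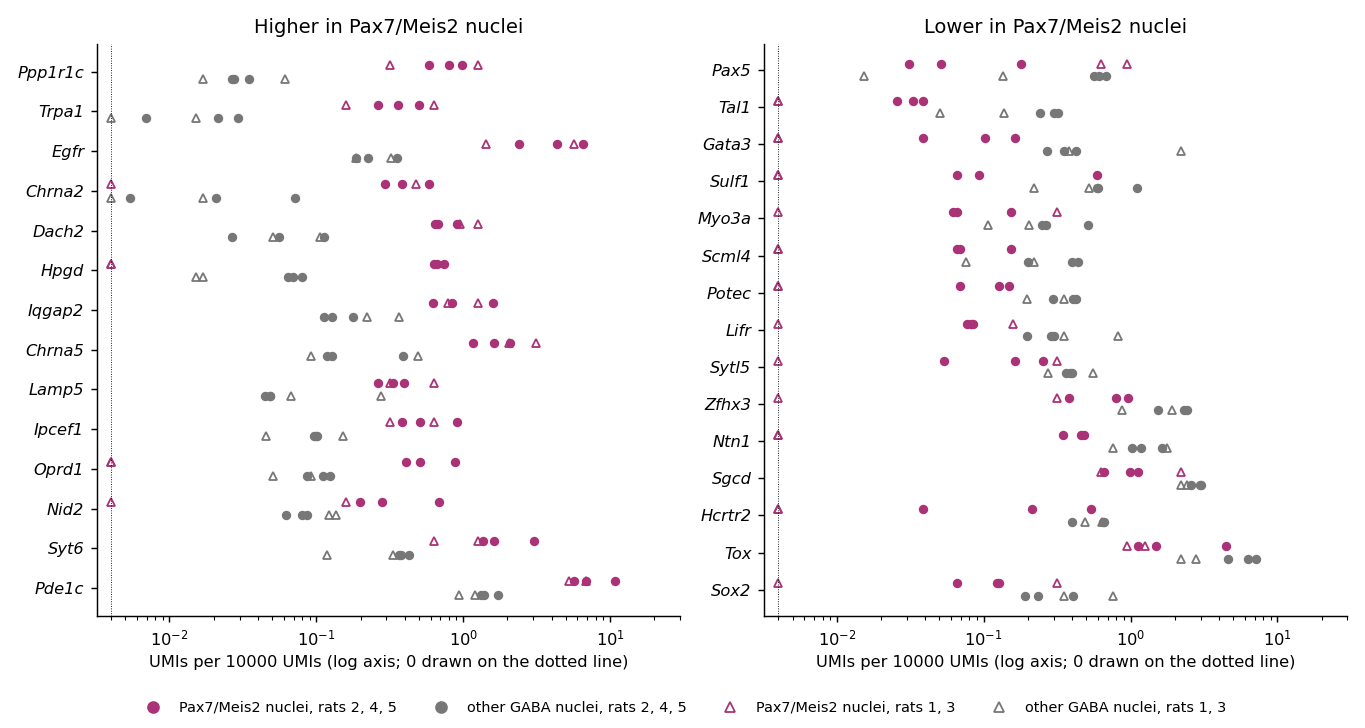
Levels by rat (UMIs per 10000 UMIs, log axis) of 14 of the 15 genes furthest above (left) and the 15 furthest below (right) other GABA nuclei; filled circles are rats 2, 4 and 5, which were fitted, and open triangles are rats 1 and 3, with 7 and 9 Pax7/Meis2 nuclei. On the left the filled circles of the groups do not overlap for any gene shown, and on the right they overlap for Hcrtr2 alone. Genes were chosen only if they moved the same way in each fitted rat.

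Meis2 binds a TGACAG core together with its partners, and this motif was looked for in the promoters of the leading genes, which were all higher in the pooled sums. The RefSeq table held 10 of the 15 (build GRCr8), and in the 250 bases before the start TGACAG or its reverse complement CTGTCA was found in 3 of the 10, against 15.8% of all 33469 promoters of the table. In the promoters of the 15 genes furthest below other GABA nuclei it was found in 1 of the 9 held by the table. The homeodomain core TAATTA was found in 0 of the 10 and in 4.86% of all promoters. Promoters of Pax7, Corin and Nox4 held neither. A match is a description of the letters and not of binding. The 3 promoters with a match are shown 5′ to 3′, with the core in capitals, since they are those of the leading genes that held it:
Ppp1r1c (chr3:85023371-85023620, + strand): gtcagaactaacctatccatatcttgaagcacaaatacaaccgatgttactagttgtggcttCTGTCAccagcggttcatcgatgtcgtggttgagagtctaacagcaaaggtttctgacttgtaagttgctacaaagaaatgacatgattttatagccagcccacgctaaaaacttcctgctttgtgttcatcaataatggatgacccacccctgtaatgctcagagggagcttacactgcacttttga
Hpgd (chr16:39034832-39035081, - strand): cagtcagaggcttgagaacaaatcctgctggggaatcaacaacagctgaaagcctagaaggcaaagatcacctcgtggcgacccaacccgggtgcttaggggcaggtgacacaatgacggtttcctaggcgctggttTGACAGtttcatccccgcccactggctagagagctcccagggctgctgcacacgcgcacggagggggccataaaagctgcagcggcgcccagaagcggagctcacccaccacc
Pde1c (chr4:87108135-87108384, - strand): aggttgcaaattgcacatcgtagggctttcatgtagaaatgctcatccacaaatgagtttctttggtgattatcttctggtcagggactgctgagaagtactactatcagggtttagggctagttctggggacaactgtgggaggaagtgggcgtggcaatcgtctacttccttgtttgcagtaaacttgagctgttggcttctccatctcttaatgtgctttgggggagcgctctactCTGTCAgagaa
The core lay 188 bases before the start of Ppp1r1c, 113 before that of Hpgd and 11 before that of Pde1c.

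Among genes detected in at least 10% of other GABA nuclei, those furthest below were led by transcription factors, and sparser genes such as Bcl11b, Sox14 and Gata2 lay further below. Pax5, a paired-box factor, stood at 0.949, 0.0309, 0.628, 0.181 and 0.0511 UMIs per 10000 in rats 1 to 5, against 0.0152, 0.613, 0.135, 0.685 and 0.561. It was lower in the 3 fitted rats (log2 fold change -2.99 ± 0.33, edgeR adjusted p = 1.8e-05) and higher in the few nuclei of rats 1 and 3. Tal1 was lower in 5 of 5 rats, at 0, 0.0386, 0, 0.0328 and 0.0255 against 0.137, 0.241, 0.0507, 0.300 and 0.322 (log2 -2.90 ± 0.38, edgeR adjusted p = 0.00010). Gata3 was at 0, 0.0386, 0, 0.164 and 0.102, against 0.381, 0.352, 2.20, 0.423 and 0.270 (log2 -2.01 ± 0.34, edgeR adjusted p = 0.0011).

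Zfhx3, a large zinc-finger homeodomain factor, stood at 0.316, 0.378, 0, 0.968 and 0.792 UMIs per 10000, against 1.90, 1.53, 0.879, 2.42 and 2.32, and was lower in every rat (log2 -1.58 ± 0.15, edgeR adjusted p = 4.3e-06). Sgcd, a sarcoglycan, was also lower in every rat and in every alternative that tested it (log2 -1.52 ± 0.15, edgeR adjusted p = 4.5e-06). The others were Sulf1, Myo3a, Scml4, Potec, Lifr, Sytl5, Ntn1, Hcrtr2, the orexin receptor, Tox and Sox2, which were 2.80- to 3.85-fold lower. These calls held less widely than those of the higher genes. Of the 15, 13 were lost without the block, 5 with DESeq2, 5 after subtraction of free RNA and 2 each with matched nuclei and without rat 2, and Tal1 and Sgcd passed under every alternative that tested them.

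Among regional transcription factors, PAX, MEIS and PBX family members outside the rule split in direction. Of 12 tested, Meis1 and Pbx3 were among the 3 that were higher, and Pax5 and Pax8 were lower, with a median log2 fold change of 0.33 beside -0.02 over all genes tested. Meis1, the closest relative of Meis2, stood at 4.90, 2.93, 2.51, 4.69 and 3.47 UMIs per 10000 in rats 1 to 5 and at 1.46, 1.33, 0.254, 0.498 and 2.04 in other GABA nuclei. It was higher in 5 of 5 rats (log2 1.66 ± 0.29, edgeR adjusted p = 0.0014), although the call was lost with DESeq2, without the block and after subtraction of free RNA. Cluster 1, described further on, held 521 of the 837 Meis1 UMIs in Pax7/Meis2 nuclei, and no fit left it out. In the Pax7/Meis2 nuclei of clusters 1 to 5 Meis1 stood at 7.08, 1.19, 0.301, 0.599 and 5.18, and in the later clusters at 2.16. Pbx3, a DNA-binding partner of MEIS proteins, was 1.73-fold higher (log2 0.79 ± 0.13, edgeR adjusted p = 0.00064), a call lost without the block and with all 5 rats. Pax3, the closest relative of Pax7, did not pass, at 1.42, 0.965, 0, 0.295 and 0.128 against 0.381, 0.976, 0.71, 0.0856 and 0.111 (log2 0.34 ± 0.25, edgeR adjusted p = 0.64). Against other GABA nuclei with none of the 4 genes it was higher (log2 1.99, edgeR adjusted p = 0.0026), and with at least 3 of the 4 genes asked for it stood below the other GABA nuclei without passing.

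Of 11 midbrain GABA transcription factors tested, 6 were lower (Gata2, Sox14, Tal1, Gata3, Foxp1 and Zfpm2) and 2 higher (En2 and Sox6). Sox6 was carried by cluster 2, described further on, whose 36 Pax7/Meis2 nuclei held 1355 of its 1636 UMIs in Pax7/Meis2 nuclei. The other 257 nuclei stood at 1.38 UMIs per 10000, beside 1.99 in other GABA nuclei outside cluster 2, lower in rats 1, 2, 3 and 5 and higher in rat 4 (3.06 against 1.24), and its log2 fold change of 1.13 (edgeR adjusted p = 0.0027) became -0.16 (0.92) without cluster 2. Gata2 had 3 UMIs in the fitted Pax7/Meis2 nuclei and 117 in the other GABA nuclei, a level 8.50-fold lower with a counting interval of 2.84 to 41.8 (edgeR adjusted p = 0.0068), a call lost without the block and after subtraction of free RNA. Sox14 was 8.27-fold lower (log2 -3.05 ± 0.50, edgeR adjusted p = 0.00082), also lost without the block. Of 26 other regional factors, 4 were higher and 5 lower. Bcl11b, a zinc-finger factor of many forebrain GABA neurons, fell by 3.29 on the log2 scale (SE 0.38, edgeR adjusted p = 2.9e-05), while Ebf2 was 2.66-fold higher, with overlapping groups (log2 1.41 ± 0.29, edgeR adjusted p = 0.0060), a call lost without cluster 4 (log2 0.95), with DESeq2, without the block and after subtraction of free RNA.

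For transmitters, 1 of 14 genes of GABA and glycine handling was higher and 2 lower. The glycine receptor subunits Glra1 and Glra3 were 2.64- and 2.12-fold lower (log2 -1.40 ± 0.23 and -1.08 ± 0.13, edgeR adjusted p = 0.00091 and 4.7e-05). Slc6a5, the glycine transporter of glycinergic neurons, was detected in 7.51% of Pax7/Meis2 nuclei and did not pass (log2 0.64 ± 0.36, edgeR adjusted p = 0.48), nor did the vesicular glutamate transporter Slc17a8 (log2 0.40 ± 0.40, edgeR adjusted p = 0.75).

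Nos1, the neuronal nitric oxide synthase, was the 1 gene of 3 tested among other transmitter genes that was higher. It stood at 1.11, 4.13, 3.77, 2.49 and 2.25 UMIs per 10000 in rats 1 to 5 and at 0.731, 0.794, 1.72, 0.428 and 0.582 in other GABA nuclei (log2 2.35 ± 0.14, edgeR adjusted p = 2.4e-08), and was detected in 69.6% against 28.2% of nuclei. Nos1 was also a leading gene of cluster 1, described further on, at 7.08 in its nuclei and 0.817 in the GABA nuclei outside it. No alternative left out cluster 1. Of 12 neuropeptide genes tested, 2 were higher and none lower. Penk, the precursor of enkephalins, stood at 3.96, 2.02, 0.628, 0.230 and 0.689, against 0.640, 0.496, 0.338, 0.123 and 0.322 (log2 1.68 ± 0.20, edgeR adjusted p = 4.7e-05). Tac1, the precursor of substance P, was 2.86-fold higher (log2 1.52 ± 0.26, edgeR adjusted p = 0.0010) and lost its call with DESeq2, without the block, after subtraction of free RNA and without rat 2. The call of Penk was lost without the block. Both were higher in 5 of 5 rats, with few UMIs in rat 3, while the ranges of the groups overlapped. Clusters 3 and 4, described further on, held 103 and 136 of the 329 Penk UMIs in Pax7/Meis2 nuclei. No fit left out both clusters. Penk stood at 0.530, 0.145 and 0.127 in clusters 1, 2 and 5 and at 0.705 in the later clusters. In GABA nuclei with none and 1 of the 4 genes it stood at 0.367 and 0.439. Cluster 3 also held 73 of the 164 Tac1 UMIs.

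Interneuron markers included Reln, or reelin, at 0.316, 1.95, 1.26, 0.574 and 1.48 UMIs per 10000 in rats 1 to 5, against 0.716, 0.350, 0.524, 0.503 and 0.336 (log2 1.87 ± 0.28, edgeR adjusted p = 0.00035). Reln was higher in the 3 fitted rats and lower in rat 1. The 28 Pax7/Meis2 nuclei of cluster 4 held 299 of the 350 Reln UMIs in Pax7/Meis2 nuclei. The other 265 Pax7/Meis2 nuclei stood at 0.240 against 0.382 in other GABA nuclei outside cluster 4. Without cluster 4 the log2 fold change turned to -0.69 (edgeR adjusted p = 0.23), and the call was lost with DESeq2, without the block, with at least 3 of the 4 genes and against all other nuclei with 2 of Gad1, Gad2 and Slc32a1. Of the 9 tested, Lamp5, Reln and Kit were higher and Cnr1, the cannabinoid receptor, lower. Kit was higher in 2 of the 3 fitted rats. The calls of Kit and Cnr1 were lost with DESeq2, without the block, after subtraction of free RNA and without rat 2, and that of Kit also with matched nuclei. Among receptors of modulators and peptides, 7 of 28 were higher (Chrna2, Chrna5, Oprd1, Oprm1, Chrna3, Crhr2 and Chrm5) and 2 lower (Hcrtr2 and Htr4). The 36 Pax7/Meis2 nuclei of cluster 2 held 25 of the 40 Crhr2 UMIs in Pax7/Meis2 nuclei. Oprm1, the μ-opioid receptor, stood at 1.42, 3.79, 1.88, 2.45 and 3.06, against 0.686, 0.840, 0.676, 0.894 and 1.09. It was higher in every rat without overlap and in every alternative (log2 1.80 ± 0.15, edgeR adjusted p = 7.5e-07). Drd2, a dopamine receptor, did not pass (log2 -0.10 ± 0.23, edgeR adjusted p = 0.92).

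Of 12 GABA receptor genes, none was higher and 3 were lower, among them Gabrb2 (log2 -1.07 ± 0.14, edgeR adjusted p = 8.8e-05) and Gabrg3 (log2 -0.90 ± 0.17, edgeR adjusted p = 0.0031), both lost without the block, and Gabrg3 also after subtraction of free RNA. Gabrb2 stood at 0.949, 1.60, 1.26, 2.43 and 3.24 UMIs per 10000, against 2.44, 4.13, 3.01, 5.76 and 5.26, lower in each rat. Of 23 glutamate receptor genes, 5 were higher and 3 lower, with Grin3a 2.15-fold higher (log2 1.11 ± 0.12, edgeR adjusted p = 1.9e-05) and the metabotropic receptor Grm3 1.91-fold lower. The 31 potassium and HCN channel genes gave 5 higher and 2 lower, with Kcnh1 2.13-fold higher and Kcnc2, a channel of fast-spiking neurons, 1.89-fold lower. The low-voltage-activated calcium channels Cacna1h (2.10-fold), Cacna1i (1.97-fold) and Cacna1g were among the 6 of 24 sodium and calcium channel genes that were higher. The calls of Kcnh1, Kcnc2, Cacna1h and Cacna1i were lost without the block, and that of Cacna1h also after subtraction of free RNA and without rat 2.

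Axon guidance was the list with the most calls, 13 higher and 6 lower of 35 tested. Sema6a and Sema3a, both semaphorins, were 3.03- and 2.64-fold higher (log2 1.60 ± 0.15 and 1.40 ± 0.23, edgeR adjusted p = 4.1e-06 and 0.00071), together with the semaphorin co-receptors Nrp1 and Nrp2. Ntn1, or netrin-1, was 2.89-fold lower (log2 -1.53 ± 0.16, edgeR adjusted p = 8.9e-06), and Robo1, Robo3 and Slit3 were lower as well. Of 32 synaptic adhesion genes, 4 were higher, with Cdh6 2.27-fold, and 4 lower, with Cdh13 2.22-fold. Beside these lists stand the 3.37% of all tested genes called higher and 2.07% called lower, and no list was tested as a set.

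The pathways of Corin and Nox4 gave few calls. Of 5 genes tested of natriuretic peptide processing and signalling, Npr3, the clearance receptor of these peptides, was higher (log2 2.82 ± 0.44, edgeR adjusted p = 0.00057), at 0, 0.216, 0.628, 0.0985 and 0.102 UMIs per 10000 against 0, 0.0381, 0.0169, 0.00535 and 0.0104. It was a sparse gene, detected in 9.22% of Pax7/Meis2 nuclei and 1.19% of other GABA nuclei, and its call was lost without the block and after subtraction of free RNA. None of the 3 NADPH oxidase pathway genes tested was called. Of marker genes of other cells, none of 9 oligodendrocyte, 6 astrocyte, 6 microglia and 2 vascular genes was called in either direction. Among 7 oligodendrocyte precursor genes Tnr was higher and Vcan lower, with a median log2 fold change of -0.99 over the list, among 5 dopamine neuron genes Kcnj6 was lower, and among 6 neuron genes Snap25 and Nyap2 were higher. Nyap2 passed in only 7 of 18 alternatives, and the call of Kcnj6 was lost with DESeq2, without the block, after subtraction of free RNA and without rat 4. The call of Tnr was lost without the block, after subtraction of free RNA, without cluster 2, without rat 4 and with all 5 rats. That of Vcan was lost without the block, without the 5 clusters with markers of other cells and with at least 3 of the 4 genes, and that of Robo3 in 3 of the 9 alternatives that tested it.

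**Figure D3:**
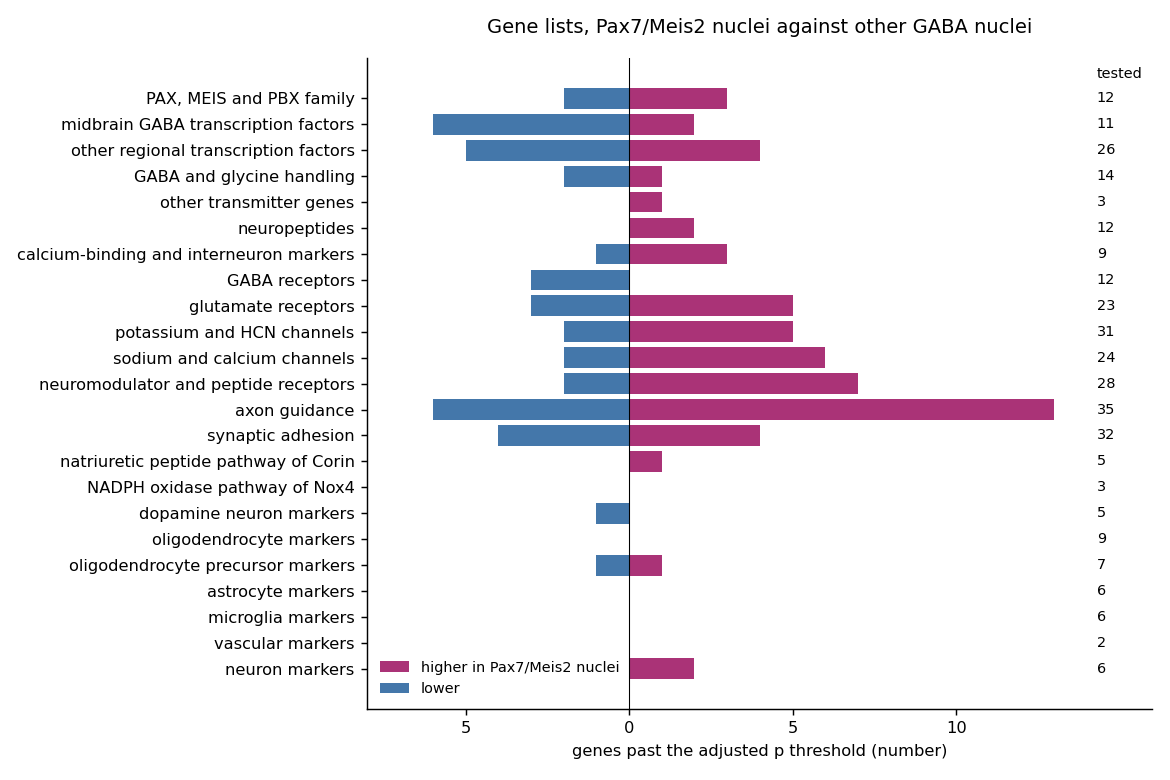
Number of genes of each list that were higher (right of 0) or lower (left of 0) in Pax7/Meis2 nuclei than in other GABA nuclei at an edgeR adjusted p under 0.05, with the number tested at the right edge. Axon guidance had 13 higher and 6 lower of 35, and midbrain GABA transcription factors 2 higher and 6 lower of 11.

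The other GABA nuclei are themselves mixed, so Pax7/Meis2 nuclei were also set against those with at least 1 UMI of Gata2, Gata3 or Sox14. Of 468 GABA nuclei with such a UMI, 16 were Pax7/Meis2 nuclei, which is 3.42% of the former and 5.46% of the latter, while 24.5% of other GABA nuclei had one. With these 16 left out, 261 Pax7/Meis2 and 356 Gata nuclei were fitted, and 6.83% of 9328 genes were called, 388 (4.16%) higher and 249 (2.67%) lower. Without the 5 clusters with markers of other cells these were 455 and 288, and without the block 143 and 46. Of marker genes of other cells, Gfap of 6 astrocyte genes (log2 0.98 ± 0.19, edgeR adjusted p = 0.0068) and Tnr of 3 oligodendrocyte precursor genes (1.03 ± 0.19, 0.0053) were higher, and the astrocyte list had a median log2 fold change of 0.73. Both calls were lost without the block, and that of Gfap also with DESeq2. This comparison shares the Pax7/Meis2 nuclei with the others, so its values are given beside them and not as a repeat.

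Against Gata nuclei, Egfr was furthest above of all genes named, with 6.66, 4.70 and 2.57 UMIs per 10000 in rats 2, 4 and 5 against 0.158, 0.0666 and 0.102 (log2 5.41 ± 0.22, edgeR adjusted p = 8.3e-08). Further genes led here that did not lead before. Ebf2, an EBF family factor, stood at 5.68, 1.84 and 3.64 against 0.239, 0.0533 and 0.102 (log2 4.81 ± 0.19, edgeR adjusted p = 8.3e-08). Sox6, an SRY-box factor, stood at 4.5, 15.5 and 4.92 against 0.775, 0.160 and 0.260 (log2 4.10 ± 0.49, edgeR adjusted p = 0.00023), of which 1.80 remained without cluster 2 (edgeR adjusted p = 0.049). Otp, a hypothalamic homeodomain factor, had 49 UMIs against 3 and Nhlh2 38 against 3, ratios of 24.5 (counting interval 7.92 to 123) and 19.0 (6.04 to 96.4). Meox2, Trhr, the receptor of thyrotropin-releasing hormone, Gask1b and Casz1 completed the 15, along with Dach2, Chrna2, Ppp1r1c, Trpa1, Chrna5 and Iqgap2, and all 15 passed under every alternative that tested them. None of these alternatives left out cluster 1.

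On the lower side, Bcl11b (log2 -4.39 ± 0.44, edgeR adjusted p = 7.0e-05) and Tal1 (log2 -3.98 ± 0.38, edgeR adjusted p = 5.1e-05) differed most. Gata2, Gata3 and Sox14, which set the comparison nuclei, were left out of this test. Tal1 is a factor of the same set, so its call is no independent finding here. Bcl11b stood at 0.0165, 0.0177 and 0.0273 UMIs per 10000 in rats 2, 4 and 5 against 0.504, 0.360 and 0.339. Sgcd, at 0.800, 0.796 and 0.683 against 4.29, 4.45 and 3.91, was the most widely detected of the lower genes, in 19.5% and 62.4% of nuclei. Glra1 and Glra3 were again below the comparison nuclei (4.43- and 3.24-fold), as were Gabrb2 (2.88-fold) and Gabrg3 (2.74-fold). Pnoc, the nociceptin precursor, was 2.57-fold lower (log2 -1.36 ± 0.28, edgeR adjusted p = 0.011), a call lost with DESeq2, without the block and without rat 5. Of the 15 genes furthest below Gata nuclei, 6 passed under every alternative that tested them, while 9 were lost without the block and 2 with DESeq2. Reln was 9.65-fold and Meis1 6.53-fold higher (edgeR adjusted p = 1.1e-06 and 0.00010), and Reln did not pass without cluster 4 (log2 0.44, edgeR adjusted p = 0.64). Cluster 1, which held 521 of the 837 Meis1 UMIs in Pax7/Meis2 nuclei, was left out of no fit.

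Npas1, a factor of another GABA class, gave a further comparison. Of 174 GABA nuclei with an Npas1 UMI, 13 were Pax7/Meis2 nuclei (7.47% of the former and 4.44% of the latter), and 8.74% of other GABA nuclei had one. In the comparison with all other GABA nuclei Npas1 itself stood at 0, 0.0541, 0, 0.148 and 0.179 UMIs per 10000 against 0.320, 0.146, 0.0507, 0.209 and 0.471, lower in each rat but not past the test (log2 -1.07 ± 0.31, edgeR adjusted p = 0.058). Between 264 Pax7/Meis2 nuclei and 148 Npas1 nuclei, 5.38% of 7962 genes were called, 284 (3.57%) higher and 144 (1.81%) lower. Without the block these were 104 and 20, without rat 4 they were 154 and 47, and without the 5 clusters with markers of other cells 259 and 114. Of 4 astrocyte genes tested, Slc4a4 (log2 1.19 ± 0.20, edgeR adjusted p = 0.00086) and Gfap (1.17 ± 0.29, 0.023) were higher, with a median of 1.04 over the list. The call of Gfap was lost with DESeq2, without the block, with matched nuclei, without these 5 clusters and without rat 2, and that of Slc4a4 without the block, without cluster 2, without rat 4 and with all 5 rats.

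Chrna2 and Trpa1 had 106 and 95 UMIs in the Pax7/Meis2 nuclei of this comparison and none in Npas1 nuclei. Against a floor of 3 UMIs over the group, they were at least 21.4- and 19.2-fold higher. Hpgd, with 151 UMIs against 2, had a ratio of 45.8 (counting interval 12.5 to 382). Eya1, a transcriptional cofactor, had 89 UMIs against 2, a ratio of 27.0 (7.25 to 226). Ebf2 (log2 4.2 ± 0.36), Chrna5 (4.17 ± 0.30) and Pde1c (3.37 ± 0.19) were also among the 15 furthest above, with edgeR adjusted p = 1.4e-06, 4.6e-07 and 3.0e-08. Rorb was 6.78-fold, Reln 5.76-fold and Sox6 3.72-fold higher, but Reln stood at a log2 fold change of -0.67 without cluster 4 and Sox6 at 0.37 without cluster 2, neither past the test. On the lower side Glra1 stood at 0.0717, 0.193 and 0.269 UMIs per 10000 in rats 2, 4 and 5 against 0.813, 1.13 and 0.970 (log2 -2.59 ± 0.32, edgeR adjusted p = 5.0e-05), and Robo1 at 3.32, 2.44 and 6.4 against 11.2, 12.8 and 12.5 (log2 -1.61 ± 0.21, edgeR adjusted p = 9.9e-05). Glra1 and Robo1 were among the 4 of the 15 genes furthest below that passed under every alternative that tested them, while 8 of the 15 were lost with DESeq2, 8 without rat 4 and 7 without the block.

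The Pax7/Meis2 nuclei did not form a single group. When the 2135 GABA nuclei were clustered without the 13 genes of the rule, 24 clusters were found and the 293 nuclei fell into 22 of them. In 3 clusters over 50% of nuclei were Pax7/Meis2 nuclei, and these held 160 (54.6%) of them. Clusters are numbered by how many Pax7/Meis2 nuclei they held, their leading genes are a description, and no test was made between them. Among the 15 leading genes against other GABA nuclei, 9 had over 50% of their UMIs in Pax7/Meis2 nuclei in cluster 1, so that they were not spread evenly over the nuclei. The name Pax7/Meis2 therefore stands for the rule and not for a single cell type.

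Cluster 1 held 102 Pax7/Meis2 nuclei of its 114, 71 of them from rat 2, 18 from rat 4, 8 from rat 5, 4 from rat 3 and 1 from rat 1. It was led by Ppp1r1c, Tnfaip8l3, Hpgd, Egfr, Trpa1, Syt6 and Chrna2. Its Pax7/Meis2 nuclei had Meis2 in 100, Nox4 in 85, Corin in 63 and Pax7 in 49, and the pooled levels were 25.8 UMIs per 10000 for Meis2, 10.1 for Egfr, 7.91 for Nox4 and 7.08 for Meis1. Cluster 3, with 30 Pax7/Meis2 nuclei of 32, was led by Enpp3, Sla, Fgf10 and Nid2, and held Tac1 at 3.66, Penk at 5.17, Lamp5 at 1.25 and Chrna5 at 5.07. Cluster 4, with 28 of 32, was led by Reln, Crispld1 and Penk and held Reln at 11.9, Penk at 5.43, Nfia at 14, Tcf4 at 23.4 and Slc17a8 at 0.959. Meis1 stood at 0.301 and 0.599 in clusters 3 and 4, far below its level in cluster 1, although Meis2 was at 21.4 in both.

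Cluster 2 differed in the genes of the rule themselves. Its 36 Pax7/Meis2 nuclei, of 117 in the cluster, all had Pax7 and 31 had Corin, while Meis2 was detected in 3 and stood at 0.726 UMIs per 10000. It was led by Crhr2, Pawr, Sox6 and Eya1, and Sox6 stood at 39.4, Pde3a at 18.7 and Egfr at 0.145. In it, 17 of the 36 nuclei came from rat 4, against 18 of the 102 in cluster 1. Cluster 5 held 25 Pax7/Meis2 nuclei of 260 and was led by Npas1, Foxp2 and Thsd7b. All 25 had Meis2 and 23 had Nox4, with Pax7 in 1, and Foxp2 stood at 10.2 and Nell1 at 12.1. The remaining 72 nuclei (24.6%) were spread over 17 clusters, and 2 clusters held none.

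**Figure D4:**
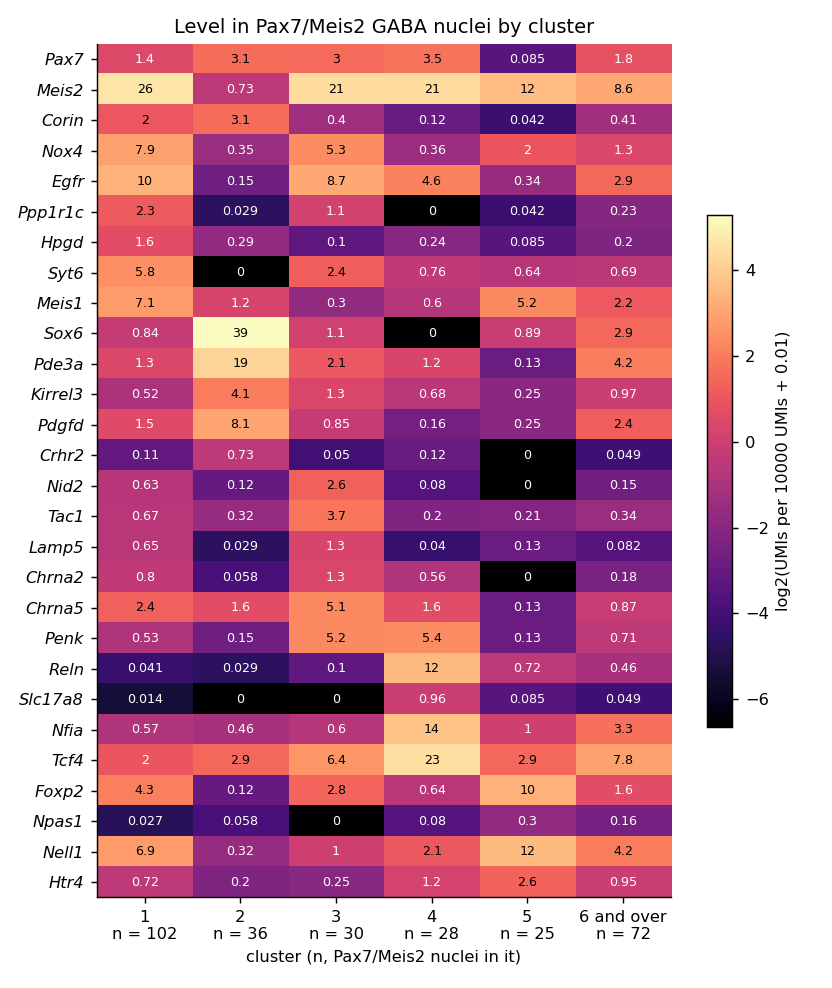
Level in Pax7/Meis2 GABA nuclei (UMIs per 10000 UMIs, printed in each cell; colour, log2 of the level plus 0.01) by cluster, with the number of Pax7/Meis2 nuclei in each. Meis2 is at 26, 21 and 21 in clusters 1, 3 and 4 and at 0.73 in cluster 2, where Sox6 is at 39.

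To describe how the nuclei varied among themselves, those with a Pax7 UMI were compared with those without, as sums per rat in the fit of rats 2, 4 and 5, with 172 and 105 nuclei. Nuclei without Pax7 had to have 2 of the other 3 genes to be included, so the split also differed in Meis2, Corin and Nox4. All 36 Pax7/Meis2 nuclei of cluster 2 fell on the side with Pax7, so the genes that lead this cluster are no independent finding here. Of 5976 genes, 0.402% were called, and 17 (0.284%) were higher with Pax7 and 7 (0.117%) lower at the threshold. Without the block, edgeR called 0 genes. It had 290 of 5976 at an unadjusted p under 0.05, no more than chance alone gives at that limit. DESeq2 with the block called 34. Other settings called from 15 genes, after subtraction of free RNA, to 230, with no filter on low counts. Without rat 5, 102 genes were called, without rat 2 42 and without rat 4 16, and 14 of the 24 genes were also called without rat 4. Without cluster 2, 26 genes were higher and 13 lower, and 20 of the 24 were called again, while without the 5 clusters with markers of other cells 25 were higher and 12 lower.

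Sox6 was highest above, at 6.18, 21.7 and 8.56 UMIs per 10000 in rats 2, 4 and 5 with Pax7 and at 0.577, 1.22 and 0.518 without (log2 3.89 ± 0.24, edgeR adjusted p = 0.00019). Pde3a, a cyclic nucleotide phosphodiesterase, stood at 5.63, 9.90 and 6.19 against 0.924, 0.377 and 0.155 (log2 3.72 ± 0.40, edgeR adjusted p = 0.011). Both were among the leading genes of cluster 2, and Sox6 stood at a log2 fold change of 1.52 without it (edgeR adjusted p = 0.017). Nfia (log2 2.10 ± 0.27, edgeR adjusted p = 0.013), Tcf4 (1.69 ± 0.21, 0.012) and Zeb2 (1.78 ± 0.24, 0.016), all transcription factors, and Kirrel3 (2.43 ± 0.32, 0.014), Pdgfd (2.38 ± 0.28, 0.011) and Hs3st2 (2.52 ± 0.28, 0.011) were higher too. Pdgfd also was a leading gene of cluster 2, which held 278 of its 558 UMIs in Pax7/Meis2 nuclei. Cluster 2 likewise held 142 of the 288 Kirrel3, 134 of the 326 Hs3st2 and 320 of the 913 Zeb2 UMIs in these nuclei. Of the 28 Pax7/Meis2 nuclei of cluster 4, 27 had Pax7. They held 351 of the 644 Nfia and 586 of the 1503 Tcf4 UMIs, and no fit of this split left cluster 4 out. For each of these genes the 3 levels with Pax7 lay above the 3 levels without, and the same direction in each rat was required for naming them.

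Lower with Pax7 were Nell1 (log2 -1.77 ± 0.21, edgeR adjusted p = 0.011), Col11a1, a fibrillar collagen chain (-1.79 ± 0.23, 0.013), Htr4, a serotonin receptor (-1.73 ± 0.24, 0.016), Zfhx4 (-1.61 ± 0.19, 0.011), Car10 and Aff2. Nell1 stood at 2.46, 3.50 and 1.96 UMIs per 10000 in rats 2, 4 and 5 with Pax7 against 6.90, 11.7 and 9.58 without. In Pax7/Meis2 nuclei, each gene named as lower stood higher in cluster 5 than in clusters 1 to 4 and in the later clusters together. Of the 25 Pax7/Meis2 nuclei of cluster 5, 1 had Pax7. Nell1 stood at 12.1 in cluster 5, 6.95 in cluster 1 and 0.320 in cluster 2. No fit left out cluster 5, and its part in these calls was not tested. Meis1 was lower in each of the 3 rats, at 2.19, 3.45 and 2.42 against 4.41, 7.02 and 4.56, without passing the test (log2 -0.95 ± 0.17, edgeR adjusted p = 0.065). Oprm1 (log2 0.97 ± 0.38, edgeR adjusted p = 0.51) and Drd2 (1.69 ± 0.48, 0.24) did not pass either.

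**Figure D5:**
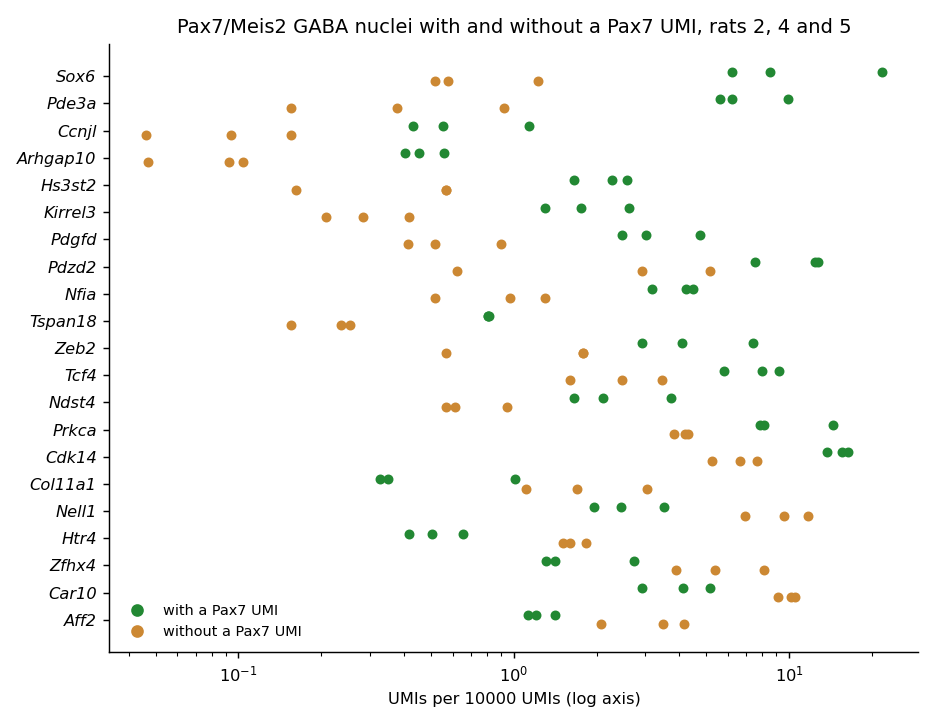
Levels (UMIs per 10000 UMIs, log axis) in Pax7/Meis2 GABA nuclei with and without a Pax7 UMI in rats 2, 4 and 5, for the 15 genes furthest above and the 6 named below. For Sox6 the nuclei with Pax7 sit between 6.18 and 21.7 and those without between 0.518 and 1.22.

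Glp1r, the receptor of glucagon-like peptide-1 (GLP-1), was the gene the study asked about. It had a UMI in 0 of 7, 2 of 172, 0 of 9, 1 of 58 and 1 of 47 Pax7/Meis2 nuclei in rats 1 to 5, together 4 of 293 (1.37%, exact 95% binomial interval 0.373 to 3.46%). In other GABA nuclei it had one in 2 of 130, 23 of 868, 2 of 247, 1 of 200 and 11 of 397, together 39 of 1842 (2.12%). Glp1r was among the leading genes of cluster 24, in which 0 of the 23 GABA nuclei were Pax7/Meis2 nuclei. The mean difference over rats was -0.651 percentage points ± 1.12 (SD, n = 5), with a lower share in 4 of 5 rats, among them the 2 rats with 7 and 9 Pax7/Meis2 nuclei and no UMI. Beside other GABA nuclei matched on UMI total, of which 6 of 293 had a UMI, the mean difference was -0.313 ± 1.45 and the share was lower in 2 rats and higher in 1 (exact permutation p = 0.75). In counts thinned to 1000 UMIs the direction turned, with a UMI in 3 of 293 against 4 of 1842 and a mean difference of 0.740 (higher in 3 rats, lower in 0, exact permutation p = 0.25). An exact permutation test that flips the signs of the 5 differences, two-sided, gave p = 0.25, and 5 rats allow no p below 0.0625. Oligodendrocytes, the background, had a UMI in 6 of 8538 nuclei (0.0703%). With 5 rats this test cannot pass 0.05, so it does not show whether the shares differed.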

How the data were processed

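Nuclei of 5 rats were measured by 10x 3′ snRNA-seq, 1 library per rat. The authors deposited unfiltered matrices of UMI counts per gene and barcode, before their removal of free RNA and doublets; the submitters' processing notes name Cell Ranger 8.0.1, and the genome build is not given in the sources used here. The matrices list 32883 genes. All else was computed from the deposited counts. Members, gate genes, gene lists and comparisons were chosen with earlier results of these data known.

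Nuclei were selected by the limits stated above. Scrublet (scanpy 1.11.5) marked 1 to 10 barcodes per library, too few to have worked, so doublets were not removed. Leaving out the top 5% of scores was added as an alternative after the data were seen. So were fitting all 5 rats and leaving out cluster 2, cluster 4 or the 5 clusters with markers of other cells. UMIs were summed per rat and group and tested with edgeR 4.0.16 (TMM, filterByExpr, quasi-likelihood F test, rat as a block, Benjamini-Hochberg over all genes tested, threshold 0.05) in R 4.3.3, leaving out the 13 genes of the rule. Both groups came from the same animals, and deviations of the groups within a rat correlated at 0.150 to 0.718 over the 4 comparisons, so the block was kept. Levels are UMIs of a gene per 10000 UMIs of the summed group, and levels of different genes were not compared. Free RNA was estimated from barcodes under 100 UMIs. Clusters came from Leiden (leidenalg 0.10.2, 2000 variable genes, 30 components, 20 neighbours, resolution 1). The mean of each gene in each rat was subtracted before the components were computed. Genes were named as up to 15 furthest in each direction among those called, the examples of each list, and a fixed set. The first were detected in at least 10% of nuclei of the higher group and had a symbol that is no placeholder. They also had to move the same way in every fitted rat, so that agreement in direction was required. Alternatives included DESeq2 1.42.0, its size factors, no filter on low counts, no block, nuclei matched on UMI total, free RNA subtracted and each rat left out. In simulated counts, the 4 fits recovered 55.7 to 73.5% of genes changed by 1 on the log2 scale and 97.1 to 100% of those changed by 2, with 4.17 to 5.96% of calls false. Some genes of the lists were not analysed here, and a few named by the rule are not reported here.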

Additional observations from a re-analysis of the deposited data

Results flagged for a closer look

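Of 21 sets of 5 rat values, 3 held a value far from the other 4, where chance flags about 1 in 20. The Slc32a1 level in Pax7/Meis2 nuclei was 7.54 UMIs per 10000 in rat 3, against 0.492 to 2.37 in the other rats; the 9 nuclei of rat 3 had a median of 1400 UMIs, and Slc32a1 stood at 7.46 in the free RNA of that library and at 4.99 in its other GABA nuclei. The Pax7 level was 2.85 in the 7 nuclei of rat 1, against 1.79 to 2.07 in the others. In free RNA, Corin stood at 0.152 UMIs per 10000 in rat 4, against 0 to 0.0277 in the others, and rat 4 also had the highest Corin level in Pax7/Meis2 nuclei, 1.59.

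Nuclei outside the rule also held the 4 genes. Of the barcodes removed for 5000 or more genes, 74 met every other step, 21.5% of such GABA nuclei. A further 311 nuclei had at least 2 of the 4 genes and fewer than 2 of Gad1, Gad2 and Slc32a1; 220 of them had 1 of these, 27 had Slc17a6, 23 were above the Mog limit and 31 above the dopamine limit, with a median depth of 5813 UMIs.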

How the results depend on the processing

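Membership depended on depth and on the rule. Asking for at least 3 of the 4 genes left 115 nuclei, and applying the rule to counts thinned to 1000 UMIs left 16. Leaving out 1 rat gave 121 to 286 nuclei, the fewest without rat 2, and a mean share of 8.94 to 13.7%.

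Against other GABA nuclei, 235 genes were higher and 79 lower with DESeq2, 49 and 5 without the replicate block, and 198 and 88 after subtraction of free RNA. The lower genes numbered 387 with no filter on low counts, 132 with nuclei matched on UMI total and 494 against all other nuclei with 2 of Gad1, Gad2 and Slc32a1; leaving out 1 rat gave 327 to 385 higher and 191 to 275 lower. Against Gata nuclei, DESeq2 gave 228 and 105, no replicate block 143 and 46, no filter 392 lower and subtraction 152 lower, and leaving out 1 rat 367 to 379 and 218 to 226. Against Npas1 nuclei, DESeq2 gave 143 and 43, no replicate block 104 and 20, matching 64 lower, and leaving out 1 rat 154 to 348 and 47 to 198 (218 and 94 without rat 2, 154 and 47 without rat 4).

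Between nuclei with and without Pax7, the counts were 0 and 0 without the replicate block, 154 and 76 with no filter, 48 and 26 with matched nuclei, 58 and 28 without the top 5% of doublet scores, 36 and 23 with all 5 rats, 26 and 13 without cluster 2, 12 lower without the 5 clusters with markers of other cells and 11 to 73 and 5 to 29 with 1 rat left out. Subtraction gave 9 higher and DESeq2 13 lower. The Glp1r difference turned to 0.740 percentage points in nuclei thinned to 1000 UMIs, and leaving out 1 rat gave -1.12 to -0.429. Reln, past the test in 3 comparisons, turned to -0.69 against other GABA nuclei and -0.67 against Npas1 nuclei without cluster 4, which held most of its UMIs in Pax7/Meis2 nuclei. Sox6, past the test against other GABA nuclei, turned to -0.16 without cluster 2. The other changes of sign were in genes not past the test: Drd2 against other GABA nuclei (-0.47 to 0.17 with 1 rat left out, above 0 without rat 2 and without rat 5, 0.0533 without cluster 4 and 0.0225 with all 5 rats; -0.26 against Gata nuclei without cluster 2), Pax3 (-0.35 with at least 3 of the 4 genes, although it passed at 1.99 against nuclei with none of them) and Slc17a8 against Gata nuclei (0.0416 with DESeq2). The cause was not tested for the latter. Depth limits sparse genes most, and the 7 and 9 nuclei of rats 1 and 3 entered no fit across genes except that of all 5 rats.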
